A study of Homo sapiens with 3 samples.

Results

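Eph receptors and ephrins were followed in HCC827, an established human non-small cell lung cancer line whose EGF receptor gene carries an activating mutation. The set was defined by name as 7 receptors (EPHA1, EPHA2, EPHA4, EPHB2, EPHB3, EPHB4 and EPHB6) and 3 ephrins (EFNA1, EFNB1 and EFNB2), 10 of the 30866 gene symbols in the expression table. All 10 had a single row each and a value in every library. Of these, 9 had at least 1 FPKM (fragments per kilobase of transcript, scaled to the number of mapped fragments) in at least 1 library and were compared. EPHB6 did not reach that level.

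RNA sequencing covered 3 populations, with 1 library each, all carrying the ClonTracer barcode library as a polyclonal pool. The dual-resistant population came out of the erlotinib-resistant one after 10 more days in 2 µM erlotinib, a kinase inhibitor of the EGF receptor, plus 0.2 µM crizotinib, a kinase inhibitor of MET. The erlotinib-resistant population had been kept in 2 µM erlotinib for 47 days. The vehicle population received 0.1% DMSO for 4 days. Drug, resistance and time in culture differed together between the groups and cannot be told apart, and both resistant populations come from a mixed pool rather than from single clones. The bulk expression values used here do not show which cells of the pool withstood a drug.

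Eph receptors are the largest family of receptor tyrosine kinases, and their ligands, the ephrins, are themselves held on the surface of neighbouring cells. A-class ephrins are attached to the membrane by a lipid anchor and B-class ephrins span it, so that on contact a signal can run forward into the receptor-bearing cell and, through the ephrin, backward into the ligand-bearing cell. In epithelia these pairs help to set cell sorting, junctions and boundaries. EPHA2, with ephrin-A1 as a main ligand, is widely studied in carcinomas, where the receptor can also signal without ligand.

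The libraries had summed levels of 494817 (dual-resistant), 528920 (erlotinib-resistant) and 596084 FPKM (vehicle). With 1 library per group no difference below has an error estimate or a test, and differences are described by size alone. A gene is called higher or lower at a log2 difference of FPKM + 1 of at least 1 in either direction, a scale that understates the differences of low genes. Scaling the libraries to the same sum moved the median log2 difference of all genes by 0.14 in the erlotinib-resistant against vehicle comparison and by 0.23 in the dual-resistant against vehicle comparison. Ratios of 2 genes within a library are not touched by such scaling. Of the 6 epithelial markers EPCAM, CDH1, KRT8, KRT18, KRT19 and CLDN4, all were present in the 3 libraries, and their summed level was 1883 FPKM in the dual-resistant cells, 3670 in the erlotinib-resistant cells and 4170 in vehicle cells. The 6 mesenchymal markers, of which VIM stood highest in the dual-resistant cells and FN1 in the other 2 populations, summed to 611 (dual-resistant), 52.0 (erlotinib-resistant) and 113 FPKM (vehicle). Between the erlotinib-resistant and vehicle cells these markers went different ways. VIM was higher (23.3 against 7.04 FPKM), while FN1 (27.9 against 101) and SPARC (0.299 against 4.92) were lower. In the dual-resistant cells VIM, CDH2 and ZEB1 were higher than in both others. CDH2 and ZEB1 reached 1 FPKM only there, so the filter on low values fixed their direction. FN1 and SPARC were higher there than in the erlotinib-resistant cells but within 2-fold of vehicle. In the dual-resistant cells EPCAM, CDH1, KRT18 and CLDN4 were lower against both others, while KRT8 and KRT19 stayed within 2-fold. The 5 leukocyte markers summed to 0.625 (dual-resistant), 0.759 (erlotinib-resistant) and 4.14 FPKM (vehicle), of which CD14 made up 4.10 in vehicle, and CD3E was listed at 0 in every library. The 4 endothelial markers summed to 0.248 (dual-resistant), 0.227 (erlotinib-resistant) and 1.38 FPKM (vehicle). The 5 fibroblast markers summed to 7.93 (dual-resistant), 2.55 (erlotinib-resistant) and 3.89 FPKM (vehicle), with PDGFRA listed at 0 in every library. In these bulk libraries fewer cells of a type and less RNA per cell cannot be told apart, and the part of the epithelial and mesenchymal shift in the results below was not tested.

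EPHA2, EPHB4 and EPHB2 were the main Eph receptors and together held 96.9% of the members' receptor sum in the dual-resistant cells, 96.7% in the erlotinib-resistant cells and 90.3% in vehicle cells. EPHA2 (Entrez ID 1969, chromosome 1, 16450832 to 16482582 on GRCh37) stood at 28.9 FPKM in the dual-resistant cells, 63.6 in the erlotinib-resistant cells and 28.6 in vehicle cells. Its level was thus high in the erlotinib-resistant cells and nearly equal in the other 2. EPHB4 (Entrez ID 2050, chromosome 7, 100400187 to 100425143), the receptor that prefers ephrin-B2, stood at 32.2, 39.9 and 23.5 FPKM in the dual-resistant, erlotinib-resistant and vehicle libraries. These values kept within 2-fold of each other. EPHB2 (Entrez ID 2048, chromosome 1, 23037331 to 23241823), a receptor for B-class ephrins, stood at 31.5 FPKM in the dual-resistant cells, 22.0 in the erlotinib-resistant cells and 15.7 in vehicle cells. It was highest in the dual-resistant and lowest in vehicle cells, with neighbouring values in that order less than 1.5-fold apart. Among the 58 receptor tyrosine kinases of the table ranked by level, EPHA2 stood at rank 8 in the dual-resistant, 3 in the erlotinib-resistant and 6 in vehicle cells, EPHB4 at rank 5 (dual-resistant), 5 (erlotinib-resistant) and 9 (vehicle), and EPHB2 at rank 6 (dual-resistant), 9 (erlotinib-resistant) and 10 (vehicle).

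The other members among the receptors were low. EPHA1 (Entrez ID 2041, chromosome 7, 143088205 to 143105985), an A-class receptor of epithelia, was listed at 0 in the dual-resistant cells, with 3.31 FPKM in the erlotinib-resistant cells and 4.59 in vehicle cells. EPHA4 (Entrez ID 2043, chromosome 2, 222282747 to 222437010), which binds ephrins of both classes, stood at 2.80, 0.126 and 0.482 FPKM in the dual-resistant, erlotinib-resistant and vehicle libraries. EPHB3 (Entrez ID 2049, chromosome 3, 184279587 to 184300196), known from the sorting of cells in the intestinal crypt, stood at 0.135 (dual-resistant), 0.860 (erlotinib-resistant) and 2.20 FPKM (vehicle). EPHA4 therefore reached 1 FPKM only in the dual-resistant cells and EPHB3 only in vehicle cells, so that the filter on low values fixed the direction of each against the library where it is high. EPHB6 (Entrez ID 2051, chromosome 7, 142552792 to 142568847), whose kinase domain is catalytically inactive, stood at 0.00829 FPKM in the dual-resistant cells, 0 in the erlotinib-resistant cells and 0.00691 in vehicle cells. By an approximate conversion this is about 1.43 (dual-resistant), 0 (erlotinib-resistant) and 1.90 fragments (vehicle), which is at the limit of what this depth can show.

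EFNA1 (Entrez ID 1942, chromosome 1, 155100349 to 155107386), which encodes ephrin-A1, was the most abundant ephrin in every library. On the log2 scale of FPKM + 1 it had the widest span of the members not listed at 0 anywhere. With 0.1 FPKM added in place of 1, the low genes EPHA4 and EPHB3 spanned more. EPHA4 then had 3.68 in the dual-resistant against the erlotinib-resistant cells. Against vehicle, the dual-resistant cells then had -3.29 for EPHB3 and -2.13 for EFNA1. As deposited, EFNA1 stood at 19.1 FPKM in the dual-resistant cells, 33.0 in the erlotinib-resistant cells and 84.4 in vehicle cells. It was lower in each resistant population than in vehicle, and the dual-resistant cells lay lowest. EFNB1 (Entrez ID 1947, chromosome X, 68048840 to 68066029), which encodes ephrin-B1, stood at 7.23, 7.00 and 12.7 FPKM in the dual-resistant, erlotinib-resistant and vehicle libraries. EFNB2 (Entrez ID 1948, chromosome 13, 107142079 to 107187388), which encodes ephrin-B2, stood at 10.0 (dual-resistant), 20.2 (erlotinib-resistant) and 7.91 FPKM (vehicle). Like EPHA2, it was high in the erlotinib-resistant cells alone. The plot of levels by library shows these 10 genes side by side.

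**Figure D1:**
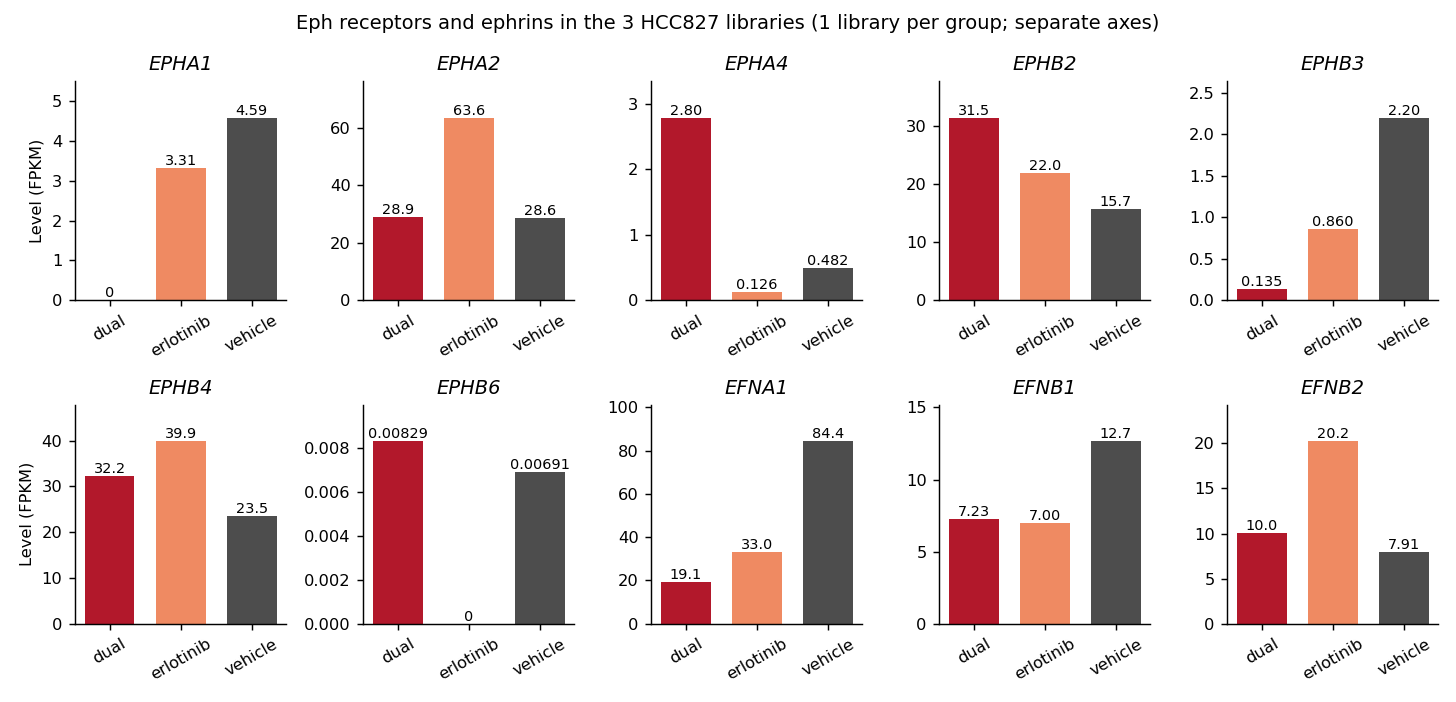
Levels of the 10 members in FPKM, as deposited, with 1 bar for each library and a separate vertical axis for each gene. EPHA2 and EFNB2 peak in the erlotinib-resistant cells (63.6 and 20.2 FPKM), EFNA1 is highest in vehicle (84.4 FPKM), and EPHB6 stays below 0.01 FPKM throughout.

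The first comparison asked how the erlotinib-resistant population differed from vehicle-treated cells. EPHA2 and EFNB2 were higher and EFNA1 was lower. EPHA2 was 2.18-fold higher (log2 difference 1.13) and EFNB2 2.38-fold higher (1.25), with folds taken on FPKM + 1 throughout. EFNA1 was 2.51-fold lower, a log2 difference of -1.33. Thus 2 of 9 members were higher and 1 lower, beside 3.80% of 13365 genes higher and 6.03% lower. The members' median log2 difference was -0.38, against 0.00 over all genes compared. Of all genes, 2.82% were at least as high in their difference as EPHA2, 2.07% as EFNB2, and 3.67% were at least as low as EFNA1. The other 6 members stayed within the limit. Of these EPHB4 (log2 difference 0.74) and EPHB2 (0.46) lay on the higher side, and EPHB3 (-0.78), EFNB1 (-0.77), EPHA4 (-0.40) and EPHA1 (-0.38) on the lower side.

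The proximal promoters of members that led this comparison, and of EPHA1, are shown for the letters they hold around the start site. They are RefSeq sequences on GRCh38.p14, a later build than that of the expression table, running from 250 bases before to 50 bases after the start. All 10 members matched a promoter. EPHA2 lies at chr1:16156020-16156319 on the minus strand, EFNB2 at chr13:106535613-106535912 on the minus strand, EFNA1 at chr1:155127626-155127925 on the plus strand and EPHA1 at chr7:143408807-143409106 on the minus strand. Capitals mark the TEAD motif GGAATG or the E-box CACCTG bound by ZEB factors, each searched on both strands.
EPHA2: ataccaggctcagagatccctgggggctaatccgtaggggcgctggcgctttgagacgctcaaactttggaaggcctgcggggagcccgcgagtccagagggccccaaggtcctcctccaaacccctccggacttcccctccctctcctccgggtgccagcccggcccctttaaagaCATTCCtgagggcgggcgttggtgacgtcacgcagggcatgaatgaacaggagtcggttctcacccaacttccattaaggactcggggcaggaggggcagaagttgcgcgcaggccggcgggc
EFNB2: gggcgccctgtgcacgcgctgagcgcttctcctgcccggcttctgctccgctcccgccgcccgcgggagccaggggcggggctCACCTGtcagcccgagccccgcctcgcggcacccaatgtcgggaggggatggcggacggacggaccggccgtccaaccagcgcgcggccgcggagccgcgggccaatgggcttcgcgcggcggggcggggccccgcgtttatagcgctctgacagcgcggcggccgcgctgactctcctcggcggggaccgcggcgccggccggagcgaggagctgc
EFNA1: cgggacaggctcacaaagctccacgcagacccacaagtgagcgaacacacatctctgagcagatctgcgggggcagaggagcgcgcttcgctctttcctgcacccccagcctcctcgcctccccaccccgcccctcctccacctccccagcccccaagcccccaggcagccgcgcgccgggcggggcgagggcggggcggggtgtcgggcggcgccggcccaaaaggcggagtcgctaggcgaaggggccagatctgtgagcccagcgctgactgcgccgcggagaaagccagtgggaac
EPHA1: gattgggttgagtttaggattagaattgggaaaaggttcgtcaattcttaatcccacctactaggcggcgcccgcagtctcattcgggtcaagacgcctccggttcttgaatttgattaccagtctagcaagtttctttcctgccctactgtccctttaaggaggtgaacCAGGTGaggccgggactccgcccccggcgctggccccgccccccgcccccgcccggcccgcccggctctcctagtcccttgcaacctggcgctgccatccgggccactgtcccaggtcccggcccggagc
The TEAD motif was found in 1 of the 10 members, EPHA2, 73 bases before the start, and in 11.0% of 9065 promoters of genes compared. The E-box was found in 3 members, EPHB2, EPHA1 and EFNB2, and in 18.6% of those promoters. It lay 62 bases before the start in EPHB2, whose sequence is not shown, 80 in EPHA1 and 167 in EFNB2. The AP-1 motif TGANTCA was found in none of the 10 windows and in 4.57% of all. The GC box GGGCGG, which can overlap neighbouring copies of itself, was found in all 10 and in 70.4% of all. A match of letters does not show binding.

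The second comparison set the dual-resistant population against the erlotinib-resistant one from which it came. EPHA2 was lower by 2.16-fold (log2 difference -1.11), and EPHA1 was listed at 0 against 3.31 FPKM. EPHA4 was 3.37-fold higher (1.75), at 2.80 FPKM against 0.126. With EPHA1 counted, 2 of 9 members were lower and 1 higher, beside 7.22% of all genes lower and 10.1% higher. With 9 members, a single gene past the limit is already close to such shares. EPHA4, the 1 higher member, reached 1 FPKM only in the dual-resistant cells, so that the filter fixed its direction. EFNB2 was 1.93-fold lower, just inside the limit with a log2 difference of -0.95. EFNA1 (-0.75) and EPHB3 (-0.71) lay on the lower side too, while EPHB2 (0.50), EFNB1 (0.04) and EPHB4 (-0.30) were nearer to 0. The members' median was -0.71, against -0.03 over all genes compared. This comparison shares the erlotinib-resistant cells with the first one, so the high values of EPHA2 and EFNB2 in that single library enter both.

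Cufflinks tables can list a gene at 0 where its estimate failed, so a 0 need not mean a lack of RNA. Of 2402 genes with 2 to 8 FPKM in both other libraries, the range in which EPHA1 lies, 25 (1.04%) were listed at 0 in the dual-resistant cells. No fold is given for EPHA1 against that library. The row of ZYX, at 119 FPKM in the dual-resistant cells, shares 2 bases of its span with EPHA1, and the antisense gene row LOC285965, at 0.264 FPKM there, shares 1080 bases. The strandedness of the libraries is not given in the sources used here, so reads from that overlap cannot be assigned to a strand.

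The third comparison set the dual-resistant population against vehicle-treated cells. EFNA1 was 4.24-fold lower (log2 difference -2.08), EPHB3 2.82-fold lower (-1.50), and EPHA1 was listed at 0 against 4.59 FPKM. EPHA4 was 2.56-fold higher (1.36). In all, 3 of 9 members were lower and 1 higher, beside 10.4% of all genes lower and 11.0% higher, and the members' median was 0.01 against -0.01 over all genes. The filter on low values fixed the direction of EPHA4 and EPHB3 here, and the call of EPHA1 rests on a value listed at 0. Of the members called, only EFNA1 is free of these limits. EPHB2 was 1.95-fold higher, at 0.96 on the log2 scale, and at 1.22 once the libraries had the same sum. EPHA2 was nearly equal in both libraries, at 0.01 on the log2 scale (0.28 after that scaling). EPHB4 (0.44), EFNB2 (0.31) and EFNB1 (-0.73) stayed within the limit. Of all genes, 3.22% had a difference at least as low as EFNA1 and 5.75% at least as low as EPHB3.

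**Figure D2:**
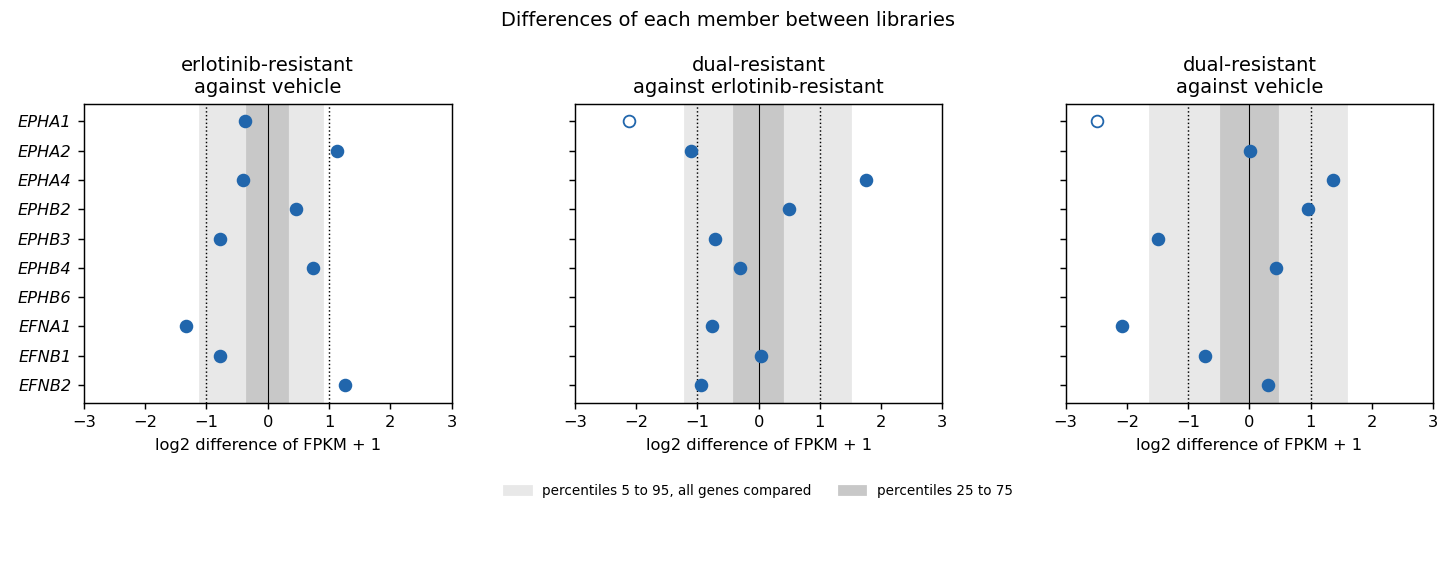
Log2 difference of FPKM + 1 for the 9 members compared, with 1 panel for each comparison, dotted lines at the limit of 1 in either direction and open points where a library is listed at 0. Grey bands span percentiles 5 to 95 and 25 to 75 of all 13365 genes compared, and EFNA1 lies to the left of the wider band in both panels against vehicle.

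Receptor RNA outweighed ephrin RNA in both resistant populations, and ephrin RNA outweighed receptor RNA in vehicle cells. The 7 receptors summed to 95.6 FPKM in the dual-resistant cells, 130 in the erlotinib-resistant cells and 75.2 in vehicle cells. The 3 ephrins summed to 36.4 (dual-resistant), 60.2 (erlotinib-resistant) and 105 FPKM (vehicle). There were thus 2.63 receptor FPKM for each ephrin FPKM in the dual-resistant cells and 2.15 in the erlotinib-resistant cells, against 0.716 in vehicle cells. Over all 14 receptors and 8 ephrins of the table this ratio was 1.44 (dual-resistant), 1.66 (erlotinib-resistant) and 0.581 (vehicle). The sum of the 3 ephrins was lower in the dual-resistant cells than in vehicle by more than 2-fold (log2 ratio -1.53), whereas the sums of the 7 receptors stayed within 2-fold of each other. The sum of all 8 ephrins was 67.9 FPKM in the dual-resistant cells and 79.4 in the erlotinib-resistant cells, against 134 in vehicle cells, so that it stayed just within 2-fold.

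**Figure D3:**
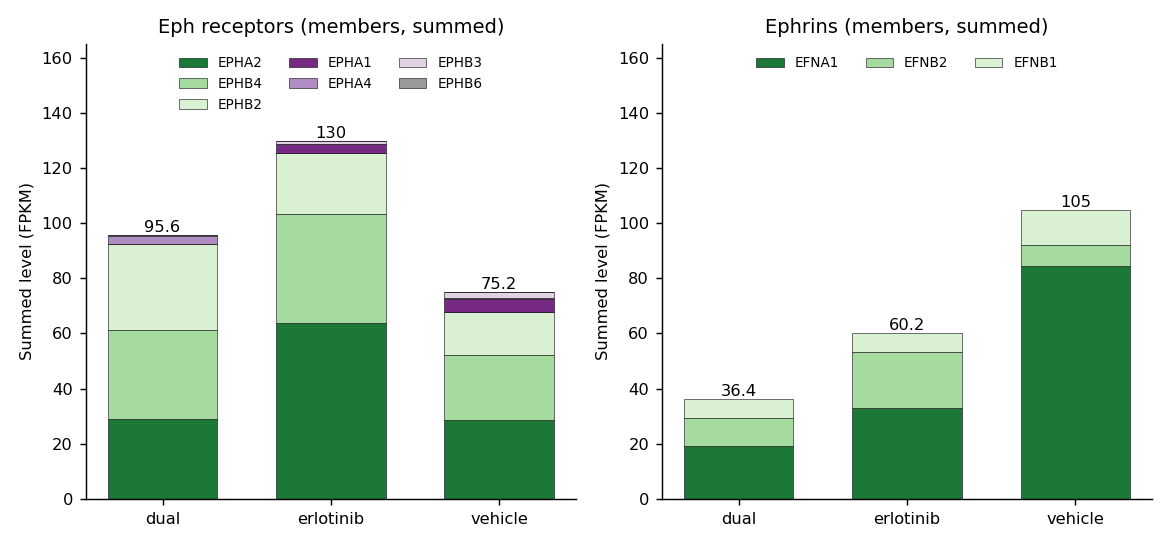
Summed levels in FPKM of the 7 Eph receptors (left) and the 3 ephrins (right) in each library, stacked by gene. Ephrins sum to 36.4, 60.2 and 105 FPKM in the dual-resistant, erlotinib-resistant and vehicle libraries, and the difference lies mainly in EFNA1.

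The composition of the members within each class also differed. A-class receptors summed to 31.7 FPKM in the dual-resistant cells, 67.1 in the erlotinib-resistant cells and 33.7 in vehicle cells, and B-class receptors to 63.8 (dual-resistant), 62.7 (erlotinib-resistant) and 41.5 FPKM (vehicle). EPHA2 held 30.3% of the receptor sum in the dual-resistant cells, 49.0% in the erlotinib-resistant cells and 38.1% in vehicle cells, and EPHB2 held 33.0% (dual-resistant), 16.9% (erlotinib-resistant) and 20.9% (vehicle). In the dual-resistant cells EPHA2, EPHB4 and EPHB2 were thus close to equal. Of the sum of the 3 member ephrins, EFNA1 held 52.6% in the dual-resistant cells, 54.8% in the erlotinib-resistant cells and 80.4% in vehicle cells. EFNB2 held 27.5% (dual-resistant), 33.6% (erlotinib-resistant) and 7.54% (vehicle). All 8 ephrins summed to 67.9 (dual-resistant), 79.4 (erlotinib-resistant) and 134 FPKM (vehicle), so the shares of that wider sum are smaller.

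Known partners were set side by side as ratios. EPHA2 stood at 1.51 times the level of EFNA1 in the dual-resistant cells and at 1.93 times in the erlotinib-resistant cells, against 0.339 times in vehicle cells. The ratio was 5.69-fold higher in the erlotinib-resistant cells and 4.45-fold higher in the dual-resistant cells than in vehicle. In the erlotinib-resistant cells EPHA2 was higher and EFNA1 lower than in vehicle, while in the dual-resistant cells EFNA1 was lower and EPHA2 was level with vehicle. EPHB4 stood at 3.21, 1.97 and 2.98 times the level of EFNB2 in the dual-resistant, erlotinib-resistant and vehicle libraries, a span of less than 2-fold. EPHB2 stood at 4.36 (dual-resistant), 3.14 (erlotinib-resistant) and 1.24 times (vehicle) the level of EFNB1, so that the ratio was 3.51-fold higher in the dual-resistant cells than in vehicle.

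**Figure D4:**
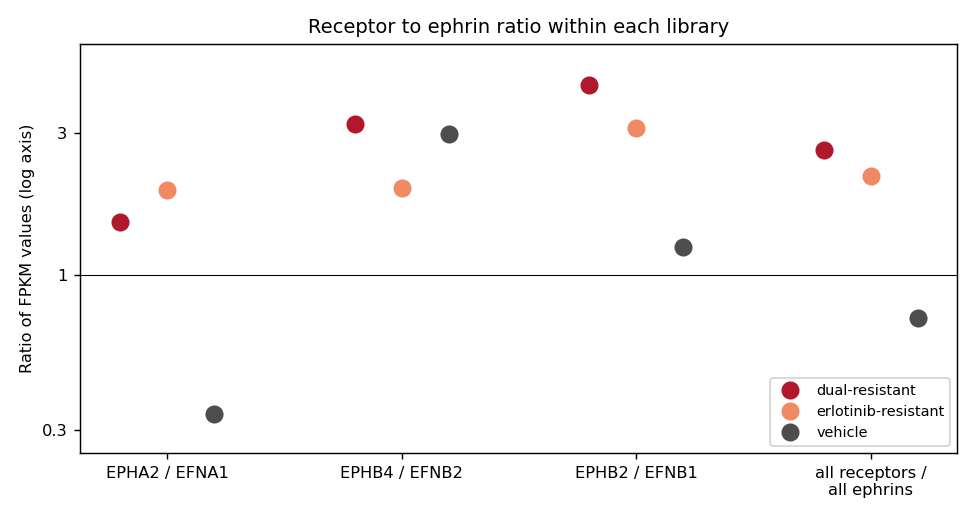
Ratio of receptor to ephrin FPKM within each library on a log axis, for EPHA2 to EFNA1, EPHB4 to EFNB2, EPHB2 to EFNB1 and all 7 receptors to all 3 ephrins. The EPHA2 to EFNA1 ratio is 1.51 and 1.93 in the dual-resistant and erlotinib-resistant libraries and 0.339 in vehicle.

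Of the other 12 genes of the family, 5 had at least 1 FPKM in at least 1 library. EFNB3, which encodes ephrin-B3, stood at 9.33 FPKM in the dual-resistant cells, 1.38 in the erlotinib-resistant cells and 3.16 in vehicle cells. It was 4.34-fold higher in the dual-resistant than in the erlotinib-resistant cells and 2.48-fold higher than in vehicle. Of the other A-class ephrin genes, EFNA4 had 13.4 (dual-resistant), 10.5 (erlotinib-resistant) and 14.4 FPKM (vehicle). EFNA5 had 6.70 (dual-resistant), 6.12 (erlotinib-resistant) and 10.2 FPKM (vehicle), and EFNA2 had 2.06 (dual-resistant), 1.22 (erlotinib-resistant) and 1.68 FPKM (vehicle). The receptor gene EPHA10 had 2.39 (dual-resistant), 1.81 (erlotinib-resistant) and 2.32 FPKM (vehicle). None of these 4 passed the limit in any comparison. EFNA3 was listed at 0 throughout, and its span overlaps EFNA4 by 5817 bases, so the split of reads between these rows is uncertain. With these genes, 2 of 14 were higher and 1 lower in the erlotinib-resistant cells against vehicle, beside 3.80% and 6.03% of all genes. In the dual-resistant against the erlotinib-resistant cells 2 were higher and 2 lower, beside 10.1% and 7.22%. In the dual-resistant cells against vehicle 2 were higher and 3 lower, beside 11.0% and 10.4%. The counts for the dual-resistant cells include EPHA4 and EPHB3, whose direction the filter fixed, and EPHA1, listed at 0 there. Within the receptor tyrosine kinases as a whole, Eph receptors held 8.49% of the summed level in the dual-resistant cells, 6.58% in the erlotinib-resistant cells and 12.4% in vehicle cells. With EGFR and MET left out, they held 27.2% (dual-resistant), 37.3% (erlotinib-resistant) and 21.8% (vehicle).

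Genes on the same chromosome stretch were compared for each member through the 5 expressed genes on either side in the table. Of all genes, 3.80% were higher and 6.03% lower in the erlotinib-resistant cells against vehicle. In the dual-resistant cells these shares were 10.1% and 7.22% against the erlotinib-resistant cells and 11.0% and 10.4% against vehicle. Around EFNA1 on chromosome 1, from 154947118 to 155178969, the 10 neighbours had a median log2 difference of -0.53 in the dual-resistant against the erlotinib-resistant cells, with 4 of 10 lower, and of -0.48 against vehicle, with 3 of 10 lower. One of the 10 is EFNA4. EFNA1 itself had -0.75 and -2.08. Against vehicle in the erlotinib-resistant cells the neighbours' median was -0.33, with 1 higher and 1 lower. Around EPHB4 the neighbours' median was 0.38 in the erlotinib-resistant cells against vehicle, with none of 10 past the limit, beside 0.74 for EPHB4. Around EPHA2 the median was 0.21 in the erlotinib-resistant cells against vehicle, 0.02 in the dual-resistant against the erlotinib-resistant cells and 0.16 in the dual-resistant cells against vehicle, with none of 10 past the limit in any. Around EPHA1 the neighbours' median was 0.39 in the dual-resistant against the erlotinib-resistant cells, with 1 of 10 higher and none lower. Around EPHB3 it was -0.66 in that comparison, with 1 of 10 lower, beside -0.71 for EPHB3, and -0.40 in the dual-resistant cells against vehicle, with 2 of 10 lower. Around EFNB2 the neighbours had 3 of 10 higher in the dual-resistant against the erlotinib-resistant cells (median 0.23) and 4 of 10 higher in the dual-resistant cells against vehicle (median 0.49), with none lower in either. EFNB2 itself had -0.95 and 0.31. Some neighbour rows around EFNB2 carry symbols of one shared locus, so the 10 are not all separate genes. Around EPHA4 the medians lay between -0.38 and -0.29 over the 3 comparisons, around EPHB2 between -0.18 and 0.26 and around EFNB1 between -0.33 and 0.03. Around EPHB6 they lay between -0.38 and 0.39. Each of these members had at most 2 of 10 neighbours past the limit in either direction. The neighbours of EPHB6 include EPHA1, listed at 0 in the dual-resistant cells, and several others that are neighbours of EPHA1 too.

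The 2 members with a log2 difference of at least 2 in any comparison were EFNA1 and EPHA1. The genes with the most like pattern over the 3 libraries were sought among those that reached 5 FPKM in any library and were listed at 0 in none. For EFNA1 these were USP18 at a distance of 0.02, MID1IP1 at 0.04 and IFIH1 at 0.07 on the log2 scale, of 10052 genes. MID1IP1 stood at 21.0 FPKM in the dual-resistant cells, 35.7 in the erlotinib-resistant cells and 94.4 in vehicle cells. For EPHA1 they were CTAGE5 at 0.04, ANKRD22 at 0.04 and HGD at 0.06. EPHA1 enters here only through its 0 in the dual-resistant cells, and genes that share that 0 could not be matched. With only 3 libraries likeness is loose, and 33 genes lay within 0.25 of EFNA1 and 30 within 0.25 of EPHA1.

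Genes that carry Eph signals inside the cell were followed as lists, each to be read beside the shares of all genes. These shares were 3.80% higher and 6.03% lower in the erlotinib-resistant cells against vehicle, 10.1% and 7.22% in the dual-resistant against the erlotinib-resistant cells, and 11.0% and 10.4% in the dual-resistant cells against vehicle. Of 26 adaptors, kinases and exchange factors of forward signalling that were compared, 2 were higher and none lower in the erlotinib-resistant cells against vehicle (median log2 difference 0.19), TIAM1 and ABL2. In the dual-resistant against the erlotinib-resistant cells 2 were higher and 5 lower (median -0.05). The adaptor gene GRB7 stood at 8.25 FPKM in the dual-resistant cells, 51.3 in the erlotinib-resistant cells and 35.3 in vehicle cells, and NGEF, which encodes ephexin, at 3.36 (dual-resistant), 19.9 (erlotinib-resistant) and 16.3 FPKM (vehicle). FYN, a Src family kinase gene, stood at 22.7 FPKM in the dual-resistant cells against 8.06 in the erlotinib-resistant cells, and LYN, of the same family, at 12.2 against 32.0 FPKM in the same 2 populations. Against vehicle, 3 were higher and 3 lower in the dual-resistant cells (median 0.01), with ITSN1 3.88-fold higher, and GRB7 and NGEF 3.93-fold and 3.97-fold lower.

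Of 11 partners of ephrin-B reverse signalling compared, PTPN13 stood out, a phosphatase gene whose product binds the tail of B-class ephrins. It stood at 24.0 FPKM in the dual-resistant cells, 6.40 in the erlotinib-resistant cells and 2.75 in vehicle cells, 6.68-fold higher in the dual-resistant cells than in vehicle. The list had 1 higher and none lower in the erlotinib-resistant cells against vehicle (TIAM1, median 0.11), 1 higher and 1 lower in the dual-resistant against the erlotinib-resistant cells (PTPN13 and TIAM1, median 0.17) and 1 higher in the dual-resistant cells against vehicle (median -0.03). Of 9 proteases and subunits that cleave Ephs and ephrins, none passed the limit in the erlotinib-resistant cells against vehicle (median -0.25). RHBDL2, a rhomboid protease gene, was the 1 lower gene in both other comparisons, at 0.345 FPKM in the dual-resistant cells, 1.90 in the erlotinib-resistant cells and 2.49 in vehicle cells (medians -0.13 and -0.07).

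The phosphatases and turnover factors compared had 3 of 9 higher and none lower in the erlotinib-resistant cells against vehicle (PTPN11, PTPRJ and CBL, median 0.14), beside 3.80% and 6.03% of all genes. They had 1 higher and 1 lower in the dual-resistant against the erlotinib-resistant cells (PTPN1 and CBLC, median -0.07), beside 10.1% and 7.22%, and 3 higher and 1 lower in the dual-resistant cells against vehicle (median 0.92), beside 11.0% and 10.4%. The receptor phosphatase gene PTPRJ stood at 22.6 FPKM in the dual-resistant cells, 12.4 in the erlotinib-resistant cells and 4.38 in vehicle cells. CBLC, a ubiquitin ligase gene of epithelia, stood at 2.96 (dual-resistant), 36.6 (erlotinib-resistant) and 19.2 FPKM (vehicle), 9.48-fold lower in the dual-resistant than in the erlotinib-resistant cells.

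In the intestine EPHB2 and EPHB3 are targets of beta-catenin. Here these 2 receptor genes lay in opposite orders, EPHB2 highest and EPHB3 lowest in the dual-resistant cells. As deposited, EPHB2 stayed within the limit in every comparison. EPHB3 reached 1 FPKM only in vehicle cells, so the filter fixed its direction against vehicle. Of 6 other beta-catenin targets compared, none was higher and 3 lower in the erlotinib-resistant cells against vehicle (median -0.49), beside 3.80% and 6.03% of all genes. Among the lower ones ASCL2, 2.26-fold lower, reached 1 FPKM only in vehicle cells, so that the filter fixed its direction. In the dual-resistant against the erlotinib-resistant cells RNF43 alone was past the limit (median 0.22). It was listed at 0 in the dual-resistant cells, with 1.74 FPKM in the erlotinib-resistant cells and 4.57 in vehicle cells. Against vehicle the dual-resistant cells had 1 higher, ZNRF3, and 2 lower, ASCL2 and RNF43 (median 0.25), beside 11.0% and 10.4%. Among the 25 other receptor tyrosine kinases compared, 4 were higher and 3 lower in the erlotinib-resistant cells against vehicle, with the largest differences in MET and EGFR, which were higher, and in KIT, which was lower. In the dual-resistant cells 5 were higher and 3 lower against the erlotinib-resistant cells, beside 10.1% and 7.22% of all genes, and 9 higher and 5 lower against vehicle, beside 11.0% and 10.4%, led in both by AXL and FGFR1. These counts include PDGFRB and FLT3, which reached 1 FPKM only in the dual-resistant cells, and KIT and FGFR2, which did so only in vehicle cells, so that the filter fixed their direction against those libraries.

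**Figure D5:**
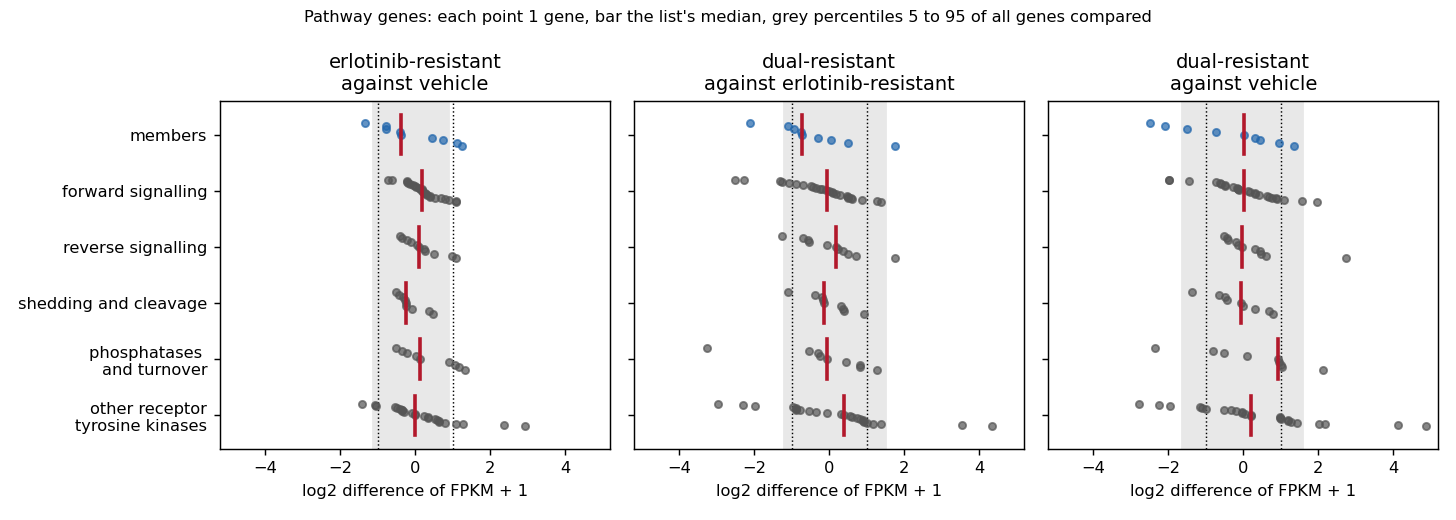
Log2 differences of FPKM + 1 for the members and for 5 lists of pathway genes, with 1 panel for each comparison, 1 point for each gene and a bar at each list's median. The grey band spans percentiles 5 to 95 of all genes compared, and the phosphatase and turnover list has a median of 0.92 in the dual-resistant against vehicle panel.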

How the data were processed

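The authors deposited 1 table of FPKM values with 1 column for each library. Per the submitters' processing notes, TopHat 1.3 and Cufflinks 1.3 were used with GRCh37. Which gene set, settings and strandedness applied is not given in the sources used here. Of 31402 rows, those with a missing cell in any library were left out, rows of one symbol were summed, and the 13365 genes that reached 1 FPKM in any library were compared as log2(FPKM + 1) with Python 3.11.15 and pandas 2.3.3. The calculation was tested on simulated data with set changes well past the limit, which did not cover low genes or values listed at 0. Groups came from the labels and none has a replicate, so no test was run. Starts, read as counted from 0 in the table, are given from 1 here.

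Depth is not stated. It was estimated from single-exon genes of 1 to 5 kb (GENCODE 29, matched by symbol): percentile 1 of their nonzero values, multiplied by length, stood for 1 fragment. A gene of 1 kb at 1 FPKM then had about 43.1 fragments in the dual-resistant, 47.4 in the erlotinib-resistant and 68.6 in the vehicle library, and fragments of a member use its longest coding transcript. Counting error is the only error this covers.

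The members, the gene lists and the motifs were chosen with earlier results of these data known. All members were named, with the other family genes at 1 FPKM or more, up to 4 genes of each list with the largest differences in a comparison, and the 3 genes most like any member that differed by a log2 value of at least 2. PDGFRB, FLT3 and FGFR2, EPHB2 and EPHB3 beside the beta-catenin list, and the neighbour EFNA4 were singled out after their values were seen. Likeness was the Euclidean distance between log2(FPKM + 1) values, each centred on its mean. Alternatives were other pseudocounts, scalings, filters and limits.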

Additional observations from a re-analysis of the deposited data

How the results depend on the processing

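A pseudocount of 5 FPKM in place of 1 shrinks differences of low genes. With it, the erlotinib-resistant library against vehicle had 1 member higher (EPHA2) and 1 lower (EFNA1). The dual-resistant library then had 0 higher and 1 lower (EPHA2) against the erlotinib-resistant library and 0 higher and 1 lower (EFNA1) against vehicle. With 0.1 FPKM, which widens them, 3 were lower in the erlotinib-resistant library against vehicle (EPHA4, EPHB3 and EFNA1), 4 were lower in the dual-resistant against the erlotinib-resistant library (EPHA1, EPHA2, EPHB3 and EFNB2) and 2 were higher in the dual-resistant library against vehicle (EPHA4 and EPHB2). At a limit of 1.5-fold these 3 counts were 3, 5 and 2. At 4-fold, 0 were higher and 0 lower in the first comparison and 0 higher and 1 lower (EPHA1) in the second. In the third, 0 were higher and 2 lower (EPHA1 and EFNA1) at that limit. Leaving out genes listed at 0, an alternative chosen after seeing the data, left 1 lower (EPHA2) in the second and 2 lower (EPHB3 and EFNA1) in the third. The shares of all genes were not recomputed for these pseudocounts and limits or without genes listed at 0. These member counts therefore cannot be placed beside a background.

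Scaling the libraries to the same sum gave 2 higher in the dual-resistant library against vehicle, with EPHB2 added, and scaling by the median ratio left every member's call as it was. Over all genes, the same-sum scaling moved the share of higher genes among those called to 53.2% against 38.7% in the erlotinib-resistant library against vehicle and to 66.0% against 51.3% in the dual-resistant library against vehicle. Of the recomputed member differences, 108 kept their side of the limit, 6 passed it and 6 dropped under it. They include those of EPHB6, which was not compared and could only stay within the limit. These pseudocounts and scalings could not reverse a difference past the limit. Among genes with a mean of at least 5 FPKM the background fell to 416 lower genes, against 806, in the erlotinib-resistant library against vehicle, to 659 higher, against 1354, in the dual-resistant against the erlotinib-resistant library, and to 838 higher and 878 lower, against 1470 and 1396, in the dual-resistant library against vehicle. Fewer genes were compared under that filter, so these counts are not shares of the same set of genes. No paired analysis was possible because each group has 1 library.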
